A study of Mus musculus with 6 samples.

Results

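Clade B serpins are protease inhibitors that work inside the cell, and 8 of them were read in microglia that had been co-cultured with neutrophils from the injured spinal cord. Serpinb1a, Serpinb1b, Serpinb1c, Serpinb6a, Serpinb6b, Serpinb8, Serpinb9 and Serpinb9b were taken from a gene table of 55335 Ensembl identifiers, in which 28 mouse clade B genes were found. They were chosen with the comparison of the groups already in view, since Serpinb1a was among the genes that rose most, so their differences between the groups are given as a description without a test. RNA sequencing covered 6 libraries in 2 groups of 3. Primary microglia, the resident macrophages of the central nervous system, were grown from the brains of newborn C57BL/6 mice and shaken off mixed cultures on day 14. They were then kept for 24 h with neutrophils sorted by magnetic beads from the lesion 3 days after spinal cord injury, and recovered by flow cytometry as Ly6G- cells. The neutrophils came from Cd177 wild-type mice (WT N) or Cd177 knockout mice (KO N). CD177 is a surface glycoprotein of a subset of neutrophils, and the microglia themselves carried the WT genotype in every library, so the deleted gene cannot serve as a check of the labels here. The question was how microglia differ after contact with neutrophils that lack Cd177. No microglia without neutrophils were part of the comparison, and the labels do not say whether the 3 libraries of a group came from separate cultures or animals, so p-values measure only the spread between these libraries.

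A serpin presents a flexible reactive centre loop as bait to a protease. When the protease cuts the loop, the loop snaps into the body of the serpin and the enzyme is left trapped in a covalent complex, so that each inhibitor molecule is used once. Clade B members lack a classical secretion signal and protect cytosol and nucleus from proteases that leak out of granules, such as neutrophil elastase, cathepsin G and the granzymes, and the loop decides which protease is caught. Mice carry expanded sets of these genes where humans carry a single SERPINB1, SERPINB6 or SERPINB9.

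The codons of the reactive centre loop are shown because this stretch meets the protease. They were read on the coding strand from GRCm38 with GENCODE M21 gene models, 5′ to 3′. The capitals mark the codons between the conserved motifs, written in lower case, that flank the loop:
Serpinb1a (chr13:32842884-32842979, minus strand): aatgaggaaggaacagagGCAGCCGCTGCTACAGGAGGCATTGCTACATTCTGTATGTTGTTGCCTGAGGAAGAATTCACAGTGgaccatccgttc
Serpinb1b (chr13:33093764-33093868, plus strand): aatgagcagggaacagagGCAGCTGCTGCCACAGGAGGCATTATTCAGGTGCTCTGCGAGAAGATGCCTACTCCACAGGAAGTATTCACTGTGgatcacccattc
Serpinb1c (chr13:32881899-32881991, minus strand): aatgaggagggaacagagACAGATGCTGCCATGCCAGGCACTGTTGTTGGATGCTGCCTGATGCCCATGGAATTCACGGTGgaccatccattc
Serpinb6a (chr13:33918107-33918202, minus strand): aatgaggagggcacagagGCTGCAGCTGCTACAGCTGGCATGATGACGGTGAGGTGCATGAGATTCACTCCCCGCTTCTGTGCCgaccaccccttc
Serpinb6b (chr13:32978198-32978287, plus strand): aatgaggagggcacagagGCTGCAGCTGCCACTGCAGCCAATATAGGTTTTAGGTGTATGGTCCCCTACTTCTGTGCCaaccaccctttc
Serpinb8 (chr1:107607164-107607259, plus strand): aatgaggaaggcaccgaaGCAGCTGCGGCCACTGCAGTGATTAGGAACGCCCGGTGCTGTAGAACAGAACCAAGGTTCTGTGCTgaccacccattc
Serpinb9 (chr13:33015690-33015782, plus strand): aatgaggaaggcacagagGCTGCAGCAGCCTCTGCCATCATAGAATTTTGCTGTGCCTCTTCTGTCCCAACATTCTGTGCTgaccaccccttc
Serpinb9b (chr13:33039793-33039894, plus strand): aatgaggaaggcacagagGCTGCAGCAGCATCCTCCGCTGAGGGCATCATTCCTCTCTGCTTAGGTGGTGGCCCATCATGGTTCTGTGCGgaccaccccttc
In all 8 genes the stretch lay within the last coding exon, which was exon 8 in Serpinb6a and Serpinb9 and exon 7 in the others. The loop spanned 20 codons in Serpinb6b and 25 codons in Serpinb1b, with the other members in between. Alanine codons (GCN) filled 4 of the first 5 loop positions in 7 members. Serpinb1c had 2 alanine codons there. Small residues at this hinge are a known feature of inhibitory serpins, because the hinge has to slide into the protein after cleavage.

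The protein encoded by Serpinb1a was 86.1% identical to that of Serpinb1b and 82.6% identical to that of Serpinb1c. Within the loop the same pairs shared 60% and 45.5% of aligned residues. Serpinb6a and Serpinb6b were 76.2% identical over the protein and 59.1% over the loop, and Serpinb9 and Serpinb9b were 76.1% and 45.8% identical. Serpinb8 resembled Serpinb6a more in the loop (63.6%) than over the protein (57.6%). Near-identical genes can share reads, so the transcripts were searched for common stretches. No stretch of 100 bases in a member transcript occurred in another member. The longest identical runs were 83 bases between Serpinb1b and Serpinb1c, 81 bases between Serpinb1a and Serpinb1b and 71 bases between Serpinb1a and Serpinb1c, so fragments within these runs could not be assigned with certainty. Serpinb6a shared 71 of its 100-base stretches with the antisense gene 1110046J04Rik, which read 0.613 to 0.873 FPKM, and Serpinb9b shared 64 with the antisense gene Gm36099, which was listed at 0 in every library.

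**Figure D1:**
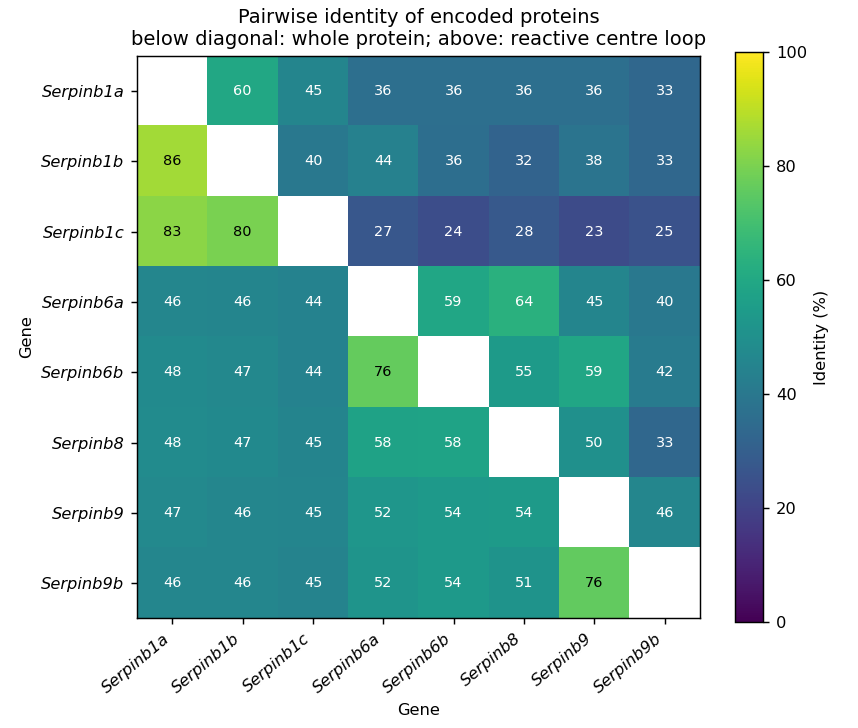
Percentage of identical residues for each pair of encoded proteins, over the whole protein below the diagonal and over the reactive centre loop above it. The Serpinb1 trio reached 79.8 to 86.1% over the protein but 40 to 60% over the loop.

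Levels were deposited as FPKM, fragments per kilobase of transcript scaled to the number of mapped fragments, a scale that allows genes to be set side by side. The steps between low values put the depth at about 15600000 to 19200000 fragments per library, and 11371 to 11406 genes reached 1 FPKM in a library. The cells were checked against the markers of their label. Of 20 microglia and macrophage markers, 12 passed the filter of a mean of 1 FPKM, with Lyz2 at 494 ± 17.1 FPKM (SD, n = 3) and Cd68 at 372 ± 7.48 FPKM with WT N. The other 8 stayed below 1 FPKM in every library. Those were P2ry12, Tmem119, Aif1, C1qb and C1qc together with Sall1, Fcrls and C1qa, which were listed at 0 throughout. The libraries thus held macrophage transcripts, while transcripts that define homeostatic microglia were at or near 0 in both groups.

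Serpinb1a, the mouse counterpart of the human inhibitor of neutrophil elastase, cathepsin G and proteinase 3, showed the largest difference among the 8 genes. The gene lies at chr13:32842092-32851185 on the minus strand. It read 13.7, 15.4 and 14.7 FPKM with WT N and 62.5, 62.2 and 61.5 FPKM with KO N. All 3 KO N libraries lay far above all 3 WT N libraries. The means were 14.6 ± 0.844 and 62.1 ± 0.517 FPKM (SD, n = 3), a 4.26-fold higher level with KO N. On the log2(FPKM + 1) scale used for the model the difference was 2.02 ± 0.04 (SE). Of 11395 genes that passed the filter, 5 rose by more. The estimated fragments behind each value ran from 444 to 2269, so that counting error was small beside the difference. In bulk RNA a larger number of cells that express a gene and more RNA per cell cannot be told apart.

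The close relatives of Serpinb1a did not share the size of its difference. Serpinb1c (chr13:32881434-32898211, minus strand) read 2.00, 2.46 and 2.73 FPKM with WT N and 4.36, 4.52 and 4.89 FPKM with KO N. Its groups were apart, with means of 2.40 ± 0.366 and 4.59 ± 0.271 FPKM, 1.92-fold higher, and a log2 difference of 0.72 ± 0.09 (SE). Serpinb1b (chr13:33078575-33094380, plus strand) was the single member with a lower mean with KO N. It read 2.65, 1.88 and 1.52 FPKM with WT N and 1.40, 1.69 and 1.42 FPKM with KO N. The groups overlapped, and the log2 difference of -0.25 ± 0.14 (SE) shrank to -0.11 when WT N replicate 1 was left out. Serpinb1b rested on 38 to 76 estimated fragments a library, and its coefficient of variation with WT N, 28.8%, exceeded the 13.4% that counting alone would give.

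Serpinb6a, the counterpart of the human cathepsin G inhibitor SERPINB6, and Serpinb6b, its neighbour in the family, were the highest members with WT N and changed little. Serpinb6a (chr13:33917918-34002794, minus strand) read 38.6, 40.6 and 40.4 FPKM with WT N and 47.4, 46.7 and 48.5 FPKM with KO N. The groups were apart, with means of 39.9 ± 1.09 and 47.5 ± 0.931 FPKM. The difference was small in size, 1.19-fold and 0.25 ± 0.03 (SE) on the log2 scale. Serpinb6b (chr13:32965209-32979067, plus strand) read 49.5, 49.9 and 48.8 FPKM with WT N and 51.0, 51.8 and 54.8 FPKM with KO N. Its means were 49.4 ± 0.588 and 52.5 ± 2.00 FPKM, and the log2 difference was 0.09 ± 0.03 (SE). With each library scaled to the same total that difference was 0.04 and the libraries of the groups overlapped, so no separation of Serpinb6b held across scalings.

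Serpinb9 encodes the inhibitor of granzyme B that protects killer cells and antigen-presenting cells from their own or incoming granules. At chr13:33003250-33017957 on the plus strand it read 5.39, 5.61 and 4.72 FPKM with WT N and 7.06, 5.81 and 7.05 FPKM with KO N. The lowest KO N library was only just above the highest WT N library. The means were 5.24 ± 0.463 and 6.64 ± 0.721 FPKM, 1.27-fold higher, with a log2 difference of 0.29 ± 0.09 (SE). Its paralog Serpinb9b (chr13:33027416-33041884, plus strand) read 1.28, 1.12 and 1.27 FPKM with WT N and 2.48, 2.28 and 2.25 FPKM with KO N. Here the groups were clearly apart, with means of 1.22 ± 0.0898 and 2.34 ± 0.126 FPKM, 1.91-fold higher. The log2 difference was 0.59 ± 0.07 (SE).

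Serpinb8, whose human counterpart inhibits the proprotein convertase furin, is the member that lies outside the cluster, at chr1:107590006-107610484 on the plus strand. It read 1.87, 1.76 and 1.71 FPKM with WT N and 3.34, 3.16 and 2.67 FPKM with KO N. The groups did not overlap, with means of 1.78 ± 0.0862 and 3.06 ± 0.345 FPKM. The level was 1.72-fold higher with KO N, and the log2 difference was 0.54 ± 0.08 (SE). For Serpinb1c, Serpinb8 and Serpinb9b the added 1 FPKM compresses the log2 difference, which was 0.92, 0.74 and 0.88 with 0.1 FPKM added in its place.

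**Figure D2:**
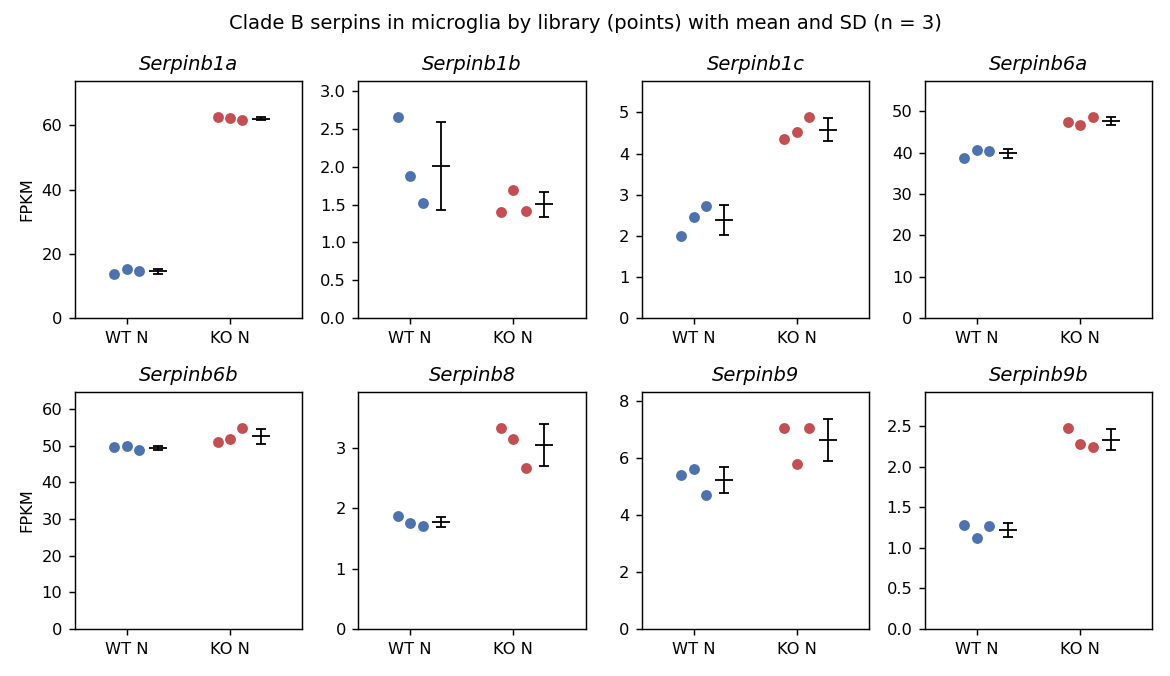
FPKM of each clade B serpin in the 3 WT N and 3 KO N libraries (points), with the mean and SD beside them; every vertical axis starts at 0 and has its own range. Serpinb1a moved from between 13.7 and 15.4 FPKM to between 61.5 and 62.5 FPKM, and Serpinb1b is the gene whose groups overlap.

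In all, the KO N libraries lay above the WT N libraries for 7 of the 8 genes, below for 0, and overlapped for 1. Among the 11395 genes tested the libraries of KO N were all above in 31.3% and all below in 24.6%. With libraries scaled to the same total, the groups of Serpinb6b overlapped as well as those of Serpinb1b. A log2 rise above 1 was seen in 1 of the 8, Serpinb1a, and in 0.641% of all genes tested. Because the members were chosen on this contrast, nothing is read from these counts. All 8 passed the filter of a mean of 1 FPKM over the 6 libraries. Serpinb1b at 1.76 FPKM and Serpinb9b at 1.78 FPKM had the lowest means. The highest mean of the 20 other clade B genes was 0.107 FPKM, so none of them passed it.

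Those 20 genes were near silent, and 15 were listed at 0 in every library, among them the whole Serpinb3 set, Serpinb6c, Serpinb6d and Serpinb6e. Serpinb2, the intracellular inhibitor of urokinase that activated macrophages are known to make, read 0.0754, 0.238 and 0.330 FPKM with WT N and was listed at 0 in all KO N libraries. A floor of 3 fragments corresponds to at most 0.0966 FPKM for this gene, so the lowest WT N value lay under it and no fold is given. Serpinb10 read at most 0.0952 FPKM and Serpinb5, Serpinb7 and Serpinb12 less.

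The order of the levels changed at its top. With WT N the order was Serpinb6b, Serpinb6a, Serpinb1a, Serpinb9, Serpinb1c, Serpinb1b, Serpinb8 and Serpinb9b from high to low, and the ranges of Serpinb1c and Serpinb1b and of Serpinb1b and Serpinb8 overlapped. With KO N Serpinb1a stood first, ahead of Serpinb6b and Serpinb6a, Serpinb9, Serpinb1c, Serpinb8, Serpinb9b and Serpinb1b, and no neighbours in that order overlapped. The 8 genes summed to 116 ± 1.97 FPKM with WT N and 180 ± 2.57 FPKM with KO N. Without Serpinb1a the sums were 102 ± 1.22 and 118 ± 3.01 FPKM. Serpinb1a made up 11.9 to 12.9% of the summed level with WT N and 33.6 to 34.9% with KO N, while the share of Serpinb6a with Serpinb6b went from between 76.3 and 77.0% to between 54.8 and 56.4%.

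**Figure D3:**
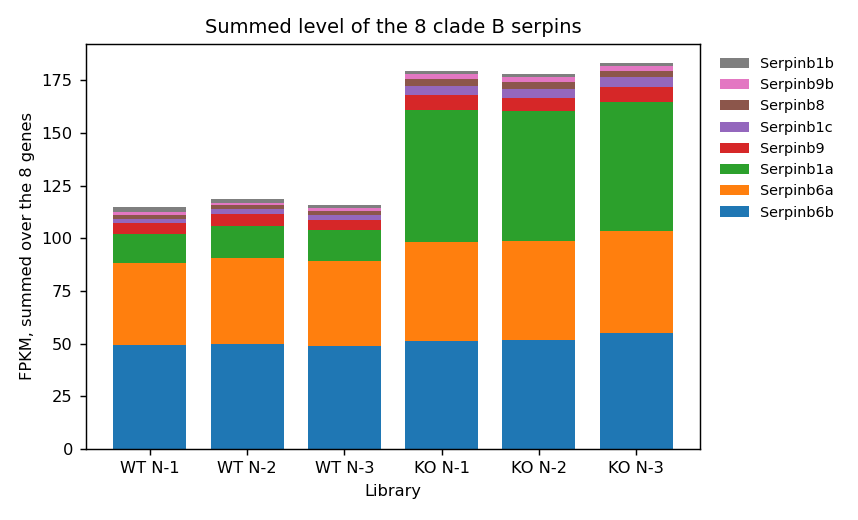
Summed FPKM of the 8 clade B serpins in each library, with 1 coloured segment for each gene. The Serpinb1a segment widened from at most 12.9% of the bar with WT N to at least 33.6% with KO N, while the Serpinb6a and Serpinb6b segments at the base differed much less.

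On chromosome 13 the 7 clustered members lie among other genes, which were read to see whether the surroundings moved too. Within 500 kb of a member the table held 47 genes on this chromosome that are not serpins, and 27 of them were listed at 0 in every library. The 12 genes that are not serpins within the same distance of Serpinb8 on chromosome 1 were all listed at 0. In limma's moderated test across all genes, 43.3% of the 11395 genes had an adjusted p under 0.05, with 24.5% higher and 18.8% lower with KO N and a median log2 change of 0.02. With every library scaled to the same total, 45.0% of the genes called were higher, against 56.6% on the deposited scale. With 3 libraries against 3, an exact two-sided permutation test of a single gene cannot go below p = 0.1, so calls rest on the model. Of the 7 neighbours tested, 2 rose, 0 fell, and the median log2 change was 0.10. Nqo2, a quinone reductase next to Serpinb6a, rose from 10.03 ± 0.492 to 15.7 ± 0.699 FPKM, a log2 change of 0.59 ± 0.05 (SE) with a limma adjusted p of 2.02e-04, and overlaps the Serpinb6a gene on the opposite strand, as Ripk1 does. The sources do not state whether fragments were counted by strand, so fragments of shared bases cannot be told apart. Tubb2a, a beta tubulin, rose by 0.54 ± 0.09 (SE) with a limma adjusted p of 0.0035. Ripk1, the death domain kinase, did not pass with a log2 change of 0.09 ± 0.04 (SE) and an adjusted p of 0.0738 in limma. Gm11382, between Serpinb1c and Serpinb6b, varied between libraries, from 0.812 to 2.50 FPKM with WT N and from 1.64 to 4.37 FPKM with KO N, and had a limma adjusted p of 0.158. Wrnip1, Bphl and Psmg4 had overlapping groups.

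**Figure D4:**
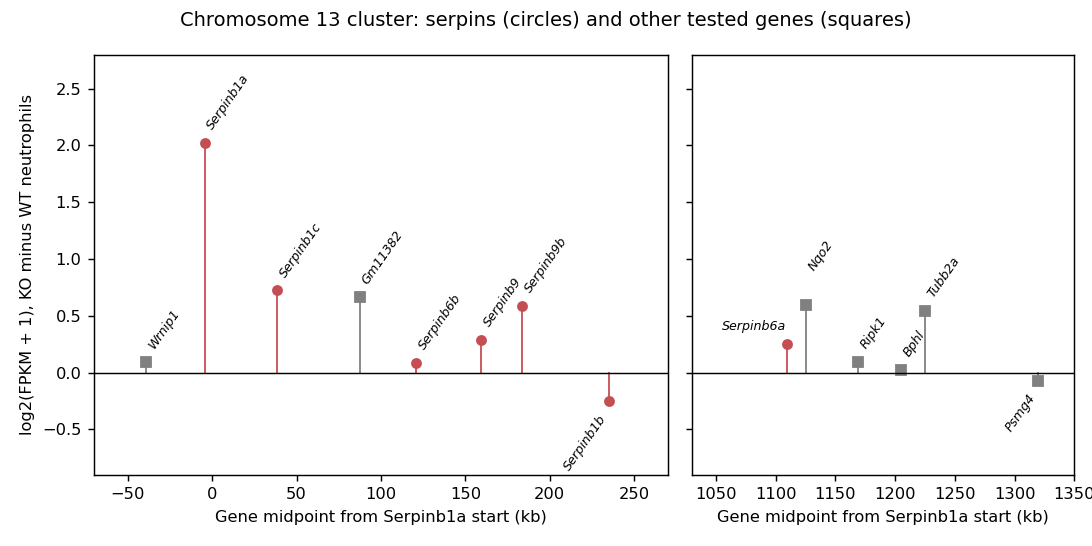
Log2 difference between KO N and WT N for the 7 clustered serpins (circles) and the 7 other genes tested nearby (squares), against the distance of each gene's midpoint from the start of Serpinb1a in kb. Serpinb1a stands at 2.02 and the genes around it range from -0.25 to 0.72.

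Genes with a profile like that of Serpinb1a were found by the Euclidean distance between log2(FPKM + 1) values centred on each gene's mean over the 6 libraries. The nearest were S100a4, a calcium-binding protein of motile cells, at a distance of 0.16, and Atp6v0d2, a subunit of the proton pump that acidifies lysosomes, also at 0.16. S100a4 went from a mean of 107 to 472 FPKM and Atp6v0d2 from 8.85 to 40.8 FPKM. Gpr183, an oxysterol receptor, lay at 0.44, the immunoglobulin constant gene Ighm at 0.51 and Cmbl at 0.54. With 3 libraries a group, this measure mostly follows the size of the step between the groups. No other clade B gene came close, since Serpinb1c ranked 192 at a distance of 1.60, Serpinb9b 381 at 1.77 and Serpinb8 475 at 1.82.

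The list of proteases held known targets of clade B serpins together with other granule, lysosomal and caspase proteases, among them cathepsins C, D and Z, for which no such binding is implied. Of the 29 listed, 13 were tested and 12 were listed at 0 in every library, including elastase (Elane), cathepsin G (Ctsg) and the granzymes Gzma and Gzmb. Proteinase 3 (Prtn3) read between 0.0320 and 0.239 FPKM. Of the 13 tested, 9 passed, with 5 higher and 4 lower with KO N and a median log2 change of 0.03, against 43.3% and 0.02 over all genes tested. Furin, the protease caught by the product of human SERPINB8, fell from 14.0, 13.9 and 13.6 FPKM to 6.35, 6.19 and 6.13 FPKM, a log2 change of -1.04 ± 0.03 (SE) with a limma adjusted p of 4.51e-06. Casp4, the inflammatory caspase that senses cytosolic lipopolysaccharide, fell from 5.97, 6.15 and 6.79 FPKM to 1.71, 1.88 and 1.62 FPKM. Its log2 change was -1.41 ± 0.07 (SE), with a limma adjusted p of 1.59e-05, whereas Casp1, the inflammasome caspase, had overlapping groups and a log2 change of -0.03 ± 0.08 (SE). Plau, the urokinase that cuts plasminogen, rose from 93.3, 88.9 and 89.2 FPKM to 165, 171 and 162 FPKM with a log2 change of 0.87 ± 0.03 (SE) and a limma adjusted p of 4.63e-06. Ctsk, the collagen-degrading cathepsin K, rose from 293 ± 3.18 to 413 ± 3.51 FPKM, a log2 change of 0.49 ± 0.02 (SE) at the same adjusted p in limma. Cathepsins D and L also rose, and cathepsins C and Z fell.

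Protease inhibitors outside clade B were read beside them. Of 34 serpins of other clades, 20 were listed at 0 in every library. Of 27 inhibitors that are not serpins, 10 were tested and 9 passed, 4 higher and 5 lower, with a median log2 change of -0.15, against 43.3% called and a median of 0.02 over all genes tested. Slpi, the secreted elastase inhibitor of the whey acidic protein family, fell from 32.6, 32.6 and 31.1 FPKM to 7.34, 5.86 and 6.85 FPKM, a log2 change of -2.11 ± 0.07 (SE) with a limma adjusted p of 5.03e-06. Wfdc17 of the same family fell by 2.43 ± 0.12 (SE) on the log2 scale (limma adjusted p of 2.25e-05). Serpinb1a and Slpi, whose products both inhibit neutrophil elastase, therefore differed in opposite directions between the groups. Birc3, a ubiquitin ligase that restrains cell death, fell with a log2 change of -1.42 ± 0.07 (SE) and a limma adjusted p of 1.79e-05. Cstb, the cytosolic cathepsin inhibitor stefin B, rose with a log2 change of 0.40 ± 0.02 (SE) and a limma adjusted p of 3.31e-05. The cystatins Cst3 and Cst7 and the metalloprotease inhibitor Timp2 also rose, and Xiap and Csta2 fell, the last being a member of a set of near-identical stefin genes and therefore uncertain.

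**Figure D5:**
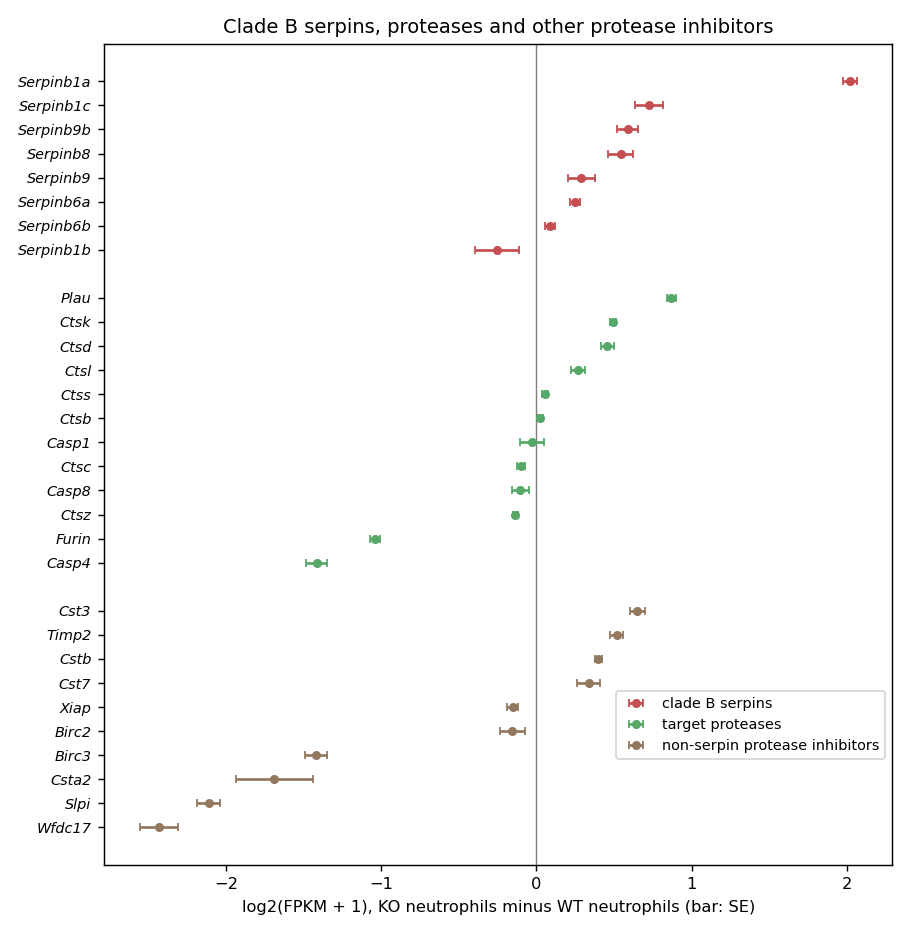
Log2 difference between KO N and WT N (points, with SE) for the 8 clade B serpins, 12 of the proteases tested and 10 inhibitors that are not serpins. The clade B serpins are a description without a test; Slpi at -2.11 lies opposite to Serpinb1a at 2.02.

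Markers of other cells that the Ly6G- gate or the culture could have carried were read next to these values. Of 23 neutrophil markers, Ly6g, S100a9, Retnlg, Ltf, Mpo, Elane, Ctsg and Stfa2l1 were listed at 0 in every library. The list summed to 120 to 124 FPKM with WT N and to 2.43 to 3.20 FPKM with KO N. Nearly all of the WT N sum was Lcn2, an iron-trapping protein that macrophages also make, at 109, 113 and 109 FPKM against 0.0480, 0.314 and 0.237 FPKM. Both of the 2 markers tested, Lcn2 and Mmp9, fell, against 18.8% lower over all genes tested. Their KO N means, 0.200 and 0.987 FPKM, lay under the filter. Both therefore passed it only through WT N, and nothing is read from this count. Mmp9, a secreted gelatinase, went from 7.14 ± 0.0688 to 0.987 ± 0.190 FPKM (limma adjusted p of 7.38e-06). Cd177 itself, too low to be tested, read 0.477, 0.113 and 0.151 FPKM with WT N and 0.109, 0.0217 and 0.0845 FPKM with KO N. S100a8, Csf3r, Camp and Hdc, also too low, had every KO N library below every WT N library. The means of Prtn3 and Ngp were higher with KO N. Of 15 markers of cytotoxic lymphocytes, 12 were listed at 0, including Gzma, Gzmb and Prf1. Their sums were 6.42 to 7.80 FPKM with WT N and 0.916 to 1.29 FPKM with KO N, and the 1 gene tested was the chemokine Ccl5, which fell with a log2 change of -2.26 ± 0.09 (SE) and a limma adjusted p of 6.75e-06. Ccl5 made up most of these sums, at 7.76, 6.42 and 7.23 FPKM with WT N and 0.714, 0.573 and 0.806 FPKM with KO N. It too passed the filter only through WT N, so its direction says nothing about the list. Klrd1, the lectin receptor chain CD94, was too low to be tested and went the other way, at 0.0461, 0 and 0 FPKM with WT N and 0.577, 0.320 and 0.420 FPKM with KO N.

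Macrophage genes themselves moved with the groups. Of the 12 markers tested 6 rose and 3 fell, with a median log2 change of 0.10, against 24.5% higher, 18.8% lower and a median of 0.02 over all genes tested, and the 20 markers summed to between 1782 and 1848 FPKM with WT N and between 1924 and 1979 FPKM with KO N. Adgre1 (F4/80) fell with a log2 change of -1.34 ± 0.04 (SE) at a limma adjusted p of 1.74e-06, and the lipid receptor Trem2 rose by 1.15 ± 0.06 (SE) at 2.34e-05. Cd68 rose by 0.40 ± 0.03 (SE) and Tyrobp by 0.48 ± 0.05 (SE) on the log2 scale, with limma adjusted p of 5.92e-05 and 7.24e-04. Of 12 dendritic cell and monocyte markers 2 were tested. Itgax rose by 0.98 ± 0.04 (SE) and Nr4a1 had a log2 change of -1.15 ± 0.06 (SE), with limma adjusted p of 1.25e-05 and 3.22e-05, and the list summed to between 23.8 and 24.2 FPKM with WT N and between 17.7 and 19.2 FPKM with KO N. Of 13 astrocyte and oligodendrocyte markers only Cnp was tested, which rose by 0.38 ± 0.07 (SE) at a limma adjusted p of 0.00521, with list sums of 2.92 to 3.47 and 4.19 to 4.60 FPKM. Whether any of these shifts had a part in the differences of the clade B serpins was not tested.

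RefSeq promoters of GRCm38.p6, each 300 bases around a start, were found for 7 of the 8 genes, 9 in number. The gene not matched was Serpinb1a. Both strands were searched for short motifs. The C/EBP motif TTGNNNAA was present in 5 of the 9 and in 36.7% of all 32851 promoters, and the ETS motif GAGGAA in 6 of the 9 and in 28.3%. The GAS motif TTCNNNGAA, read by STAT factors, was found in 1, a Serpinb6a promoter, and in 8.30% of all. An interferon response core GAAANNGAA occurred in 3 promoters, of Serpinb6a and Serpinb9, and in 8.56% of all. The AP-1 motif TGANTCA occurred in 1, of Serpinb8, and in 7.81% of all, and the kappa-B consensus and the E-box CACGTG in 0 of the 9, against 4.51% and 7.15%. These matches describe letters in the windows and not binding.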

How the data were processed

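Primary mouse microglia co-cultured with Cd177 WT or KO neutrophils (3 libraries each) were profiled by RNA sequencing. The authors deposited 1 table of FPKM values per gene and library; the submitters' processing notes name fastp 0.17.1, HISAT2 2.1.0, DESeq2 1.18.1 and R 3.4.3, and the quantifier, genome build and annotation behind the FPKM are not given in the sources used here. Ensembl identifiers were matched to symbols (99.7% of 55335). The members and gene lists were chosen with earlier results of these data known. Steps between low values gave the approximate depth, but 28.5 to 30.7% of low values were whole multiples within 0.05 (10% by chance), so counts were not recovered; fragment numbers cover counting error only.

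The 11395 genes whose mean reached 1 FPKM were fitted as log2(FPKM + 1) in limma 3.58.1 (R 4.3.3, eBayes with trend, contrast KO minus WT, Benjamini-Hochberg over all genes tested, threshold 0.05), which understates changes of low genes; the fit was tested on simulated data. All 8 members were named, with, of each list, up to 4 tested genes with the smallest p and defining markers listed at 0, and the 5 genes nearest in profile to Serpinb1a; other genes named in a clause were chosen after their values were seen. Coding sequences came from GRCm38 with GENCODE M21 and were translated for identity (Biopython 1.88, global alignment). 1 of 21 other clade B names, Serpinb14, had no match. Alternatives changed the pseudocount, filter, scaling, variance trend and pairing, or left out a library. Some listed genes are not reported here.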

Additional observations from a re-analysis of the deposited data

How the results depend on the processing

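Of 578 comparisons of a value with its alternative, 564 were labelled the same and 0 reversed. A named gene was the same if its call held, and a member if it moved by less than the replicate spread. A list count was the same within a ratio of 1.5, which held for 148 of 153, and a count cannot reverse. Settings that cannot change a member's difference, such as the block, are counted among the same. Without a filter on low values the genes called were 5 neutrophil markers in place of 2, 2 cytotoxic lymphocyte markers in place of 1 and 4 locus neighbours in place of 2, since more genes were tested. With a mean of at least 5 FPKM, 1 neutrophil marker was tested and called, and 4 members remained, 4 of them higher with KO N. Over all genes, 3763 to 4931 were called under the alternatives and 4082 to 4223 when a library was left out, against 4930. Leaving out each library gave 2.0 to 2.1 for the log2 difference of Serpinb1a and left 7 members higher; Gm11382 reached an adjusted p of 0.0464 in limma, with a log2 change of 0.97, without KO N replicate 2. The common sum gave log2 differences of 0.20 for Serpinb6a, 0.04 for Serpinb6b, 0.64 for Serpinb8 and 0.74 for Serpinb9b; it equalises the totals and also enlarges every value relative to the added 1, so these 2 changes are not separated.

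Deviations of same-numbered libraries correlated at -0.08, -0.05 and -0.01, and differently numbered libraries were not compared in this way. These values cannot decide whether same-numbered libraries shared a culture or a day. With replicate number as a block, 4212 genes were called. In this balanced layout the block cannot change a difference of group means, so the directions of the members were fixed in advance. Tests on counts were not run, because whole reads could not be recovered. Depth limits Serpinb1b most, with 38 to 76 estimated fragments.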

Other observations

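Itgam, the integrin chain CD11b, read 8.12 FPKM in WT N replicate 1 against 24.0 and 26.7 FPKM in the other WT N libraries and 15.2 to 18.1 FPKM with KO N. The same library held the highest Serpinb1b value, 2.65 FPKM, and the lowest Serpinb1c value, 2.00 FPKM.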
